A study of Mus musculus with 12 samples.

Results

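The endoplasmic reticulum (ER) chaperone and unfolded protein response genes were examined in C2C12 cells, an established line of mouse myoblasts, after siRNA silencing of *Zbed6*. The set holds 33 genes chosen by symbol for their known function, and a gene entered through any array probe that carries its symbol in the platform annotation. Of these 33 genes, 30 had a named probe among 16593 gene symbols on the array, and 26 were detected well enough to test, out of 8858 genes tested in all. *Zbed6* is a domesticated transposase gene whose protein is known to repress *Igf2* in muscle. The silenced cells received a pool of siRNAs against *Zbed6*, and the control cells received a pool of scrambled siRNAs (negative control siRNA), both by reverse transfection with lipofectamine 2000. All cells grew in DMEM with serum and were collected 48 h or 96 h later. Each of the 4 groups (*Zbed6*-silenced 48 h, control 48 h, *Zbed6*-silenced 96 h, control 96 h) had 3 Illumina MouseRef-8 v2 arrays, which the labels describe as biological triplicates.

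Secreted and membrane proteins are made at the ER, enter it through the Sec61 translocon, and are folded there by chaperones and by protein disulfide isomerases. Proteins that fail to fold are carried back to the cytosol and destroyed by the proteasome, a route called ER-associated degradation. When unfolded proteins build up, the sensors Ire1 (*Ern1*), Perk (*Eif2ak3*) and *Atf6* start the unfolded protein response, in which the transcription factors Xbp1, Atf6 and Atf4 raise the genes of chaperones, of degradation and of amino acid supply. In muscle precursors this response is known to accompany differentiation into myotubes.

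Many of these genes carry the ER stress response element (ERSE), the site through which Atf6 acts together with the factor NF-Y. Promoters of 300 bases, 250 before and 50 after an annotated start, were taken from RefSeq (GRCm38.p6), and 27 of the 33 genes had one. For *Edem1* the stretch (chr6:108828391-108828690, + strand) lies inside the gene, which begins at 108824045. That of *Eif2ak3* was placed from a start slightly inside the gene. The 6 genes without an entry were *Hyou1*, *Manf*, *Atf6*, *Derl1*, *Sec61a1* and *Ssr2*. ERSE was searched on both strands as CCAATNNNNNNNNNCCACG and was found in 9 of the 27 genes (*Hspa5*, *Hsp90b1*, *Calr*, *Canx*, *Dnajc3*, *Creld2*, *Pdia6*, *Syvn1* and *Derl3*), which is 32.1% of 28 promoters, against 0.119% of all 32851 promoters in the table. The related element ERSE-II, searched as ATTGGNCCACG, was in *Herpud1* and *Dnajb11*, 7.14% of the 28 promoters against 0.0365% of all promoters. The Xbp1 element TGACGTGG was in none of the 28 promoters and in 0.676% of all promoters. All of these elements share the letters CCACG, which alone were in 78.6% of the 28 promoters. They were in 32.8% of all promoters and in 46.6% of the promoters of genes tested on the array. The stretches that hold the elements are shown for the tested genes whose values are given below, 5′ to 3′ on the strand of the gene, with the letters of the element in capitals. A match is a description of these letters and not a measured binding site. The genes were chosen for their known function in this response, so the shares describe the set and test nothing.
Hspa5 (chr2:34772019-34772049, + strand): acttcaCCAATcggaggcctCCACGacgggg
Hsp90b1, first match (chr10:86705632-86705662, - strand): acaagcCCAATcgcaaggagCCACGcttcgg
Hsp90b1, further match (chr10:86705527-86705557, - strand): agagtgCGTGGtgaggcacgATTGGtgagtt
Calr (chr8:84847069-84847099, - strand): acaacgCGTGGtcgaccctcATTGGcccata
Dnajc3 (chr14:118937821-118937851, + strand): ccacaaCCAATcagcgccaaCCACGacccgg
Syvn1 (chr19:6046526-6046556, + strand): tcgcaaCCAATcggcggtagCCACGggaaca
Herpud1 (chr8:94386371-94386393, + strand): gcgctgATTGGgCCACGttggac

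The matches of *Hspa5*, *Syvn1* and *Herpud1* began 65, 44 and 52 bases before the start of the gene. *Hsp90b1* held a pair of ERSE matches in opposite orientation, 212 and 107 bases before its start, and the match of *Calr* lay on the opposite strand, 162 bases before. The short letters that ZBED6 is known to bind, GCTCG, are common in promoters. They were in 19 of the 27 genes (67.9% of promoters), against 29.8% of all promoters and 47.5% of the promoters of genes tested on the array. The longer form GGCTCGC was in *Canx*, *Creld2*, *Pdia6* and, in a stretch inside the gene, *Edem1* (14.3% of promoters). It was in 4.79% of all promoters and in 8.49% of the promoters of genes tested on the array. Of the genes that passed the silencing test below, *Calr* and *Wfs1* held GCTCG and *Syvn1* did not. The *Wfs1* promoter is shown because *Wfs1* was the only member that passed as higher in silenced cells on either day. Its single GCTCG match lies on the opposite strand, 68 bases before the start, and is in capitals.
Wfs1 (chr5:36988933-36989232, - strand): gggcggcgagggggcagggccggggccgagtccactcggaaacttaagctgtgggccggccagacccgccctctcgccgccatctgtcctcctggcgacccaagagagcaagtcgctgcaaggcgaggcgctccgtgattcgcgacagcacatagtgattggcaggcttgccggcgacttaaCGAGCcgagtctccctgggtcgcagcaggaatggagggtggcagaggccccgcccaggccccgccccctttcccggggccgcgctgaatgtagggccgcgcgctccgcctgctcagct

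On each array 12078 to 12558 of 25697 probes were detected, and the median raw signal lay between 76.5 and 90.8. The correlation was at least 0.9939 within groups and at most 0.9936 between them. No probe used here is named *Zbed6*, so the silencing was not checked on these arrays. *Igf2* had a log2 signal of 14.60 ± 0.080 at 96 h in silenced cultures, against 14.15 ± 0.045 in control cultures (SD, n = 3 each), a difference of 0.45 (limma, adjusted p = 0.023), and its difference at 48 h was 0.35 (adjusted p = 0.073). Of the myoblast and myotube markers on the array, 7 of 8 were detected on every array of every group, and *Myf5* was detected on none. None of 4 leukocyte markers was detected on any array of any group. RNA was taken from whole cultures, where fewer cells of a type and less RNA per cell cannot be told apart. Precision is limited throughout by having 3 arrays in a group.

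Among the 26 tested members, 23 were detected on all 12 arrays. The exceptions were *Manf* with 11, *Edem1* with 10 and *Derl1* with 5 arrays, so values of these 3 genes lie near the background. The probes of *Canx* (calnexin, a lectin chaperone), *Ern1*, *Derl3* and *Ssr1* were not well above background on any array. *Dnajb11*, *Sdf2l1* and *Atf6* had no named probe. Values below are log2 signals of the brightest probe of each gene, and a difference of 1 on this scale is a doubling. The probes of different genes differ in brightness for technical reasons, so levels are compared only within a gene.

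**Figure D1:**
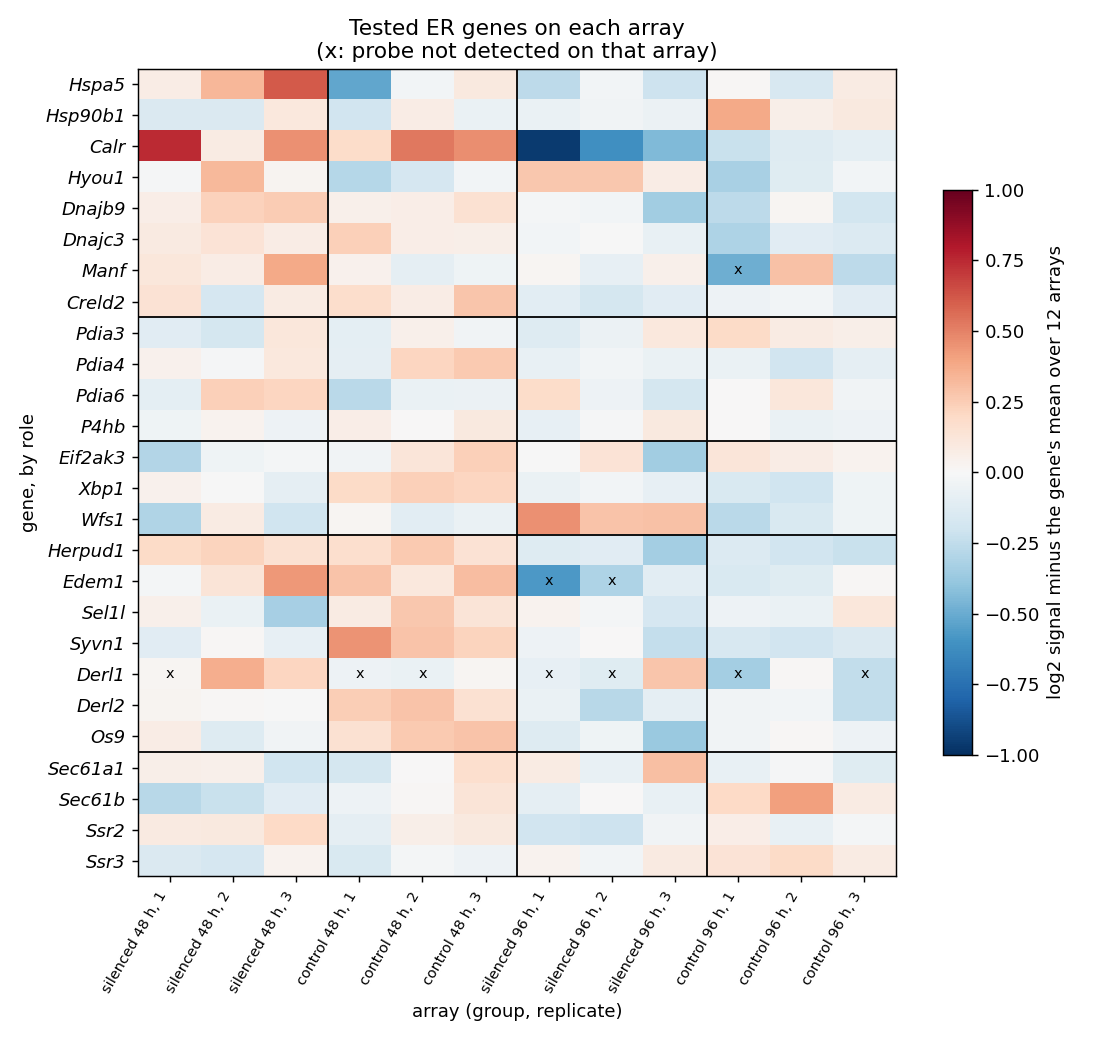
Log2 signal of each of the 26 tested genes (rows, in the order chaperones, disulfide isomerases, sensors with *Xbp1* and *Wfs1*, ER-associated degradation, translocon) on each of the 12 arrays (columns), minus the mean of the gene over all arrays. *Calr* is low on all 96 h arrays and lowest in silenced cells, and *Syvn1* and *Xbp1* are highest on the control arrays of 48 h.

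The first question was which members differed between *Zbed6*-silenced and control cells at 48 h. Only *Syvn1*, which encodes the ubiquitin ligase Hrd1 at the centre of ER-associated degradation, passed the test, and it was lower in silenced cells. Its log2 signal was 12.10, 12.22 and 12.13 in silenced cells, against 12.66, 12.49 and 12.44 in control cells. The arrays of the groups did not overlap, and the difference was -0.38 (SE 0.094, limma, adjusted p = 0.039), or 0.769 times the control level. This makes 1 of 26 members lower (3.85%) and 0 of 26 higher, while 5.61% of all 8858 genes were lower and 4.63% were higher, so the share of members called was below that of all genes. At an unadjusted p under 0.05 there were 8 members. The median difference was -0.03 over the members and 0.000545 over all genes. It was -0.07 without silenced replicate 3 or control replicate 1, -0.01 without silenced replicate 1, and 0.05 with median scaling, where that of all genes was 0.04. The *Syvn1* call rested on all 6 arrays: leaving out any 1 of them gave differences of -0.43 to -0.31 with adjusted p-values up to 0.095, and median scaling in place of quantile normalization also ended it (adjusted p = 0.20).

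Some other degradation genes lay on the same side at 48 h without passing the test. Of the 7 tested, with *Syvn1* among them, 6 had a difference below 0 and the median of the 7 was -0.22, while 49.9% of all genes were below 0. Of these, *Edem1*, near the background, stood at only -0.05. Among the 20 further degradation genes read from a list below, 11 had a difference above 0 (median 0.02). The lectin *Os9*, which hands misfolded glycoproteins to Hrd1, had a log2 signal of 10.12, 9.92 and 10.01 in silenced cells, against 10.20, 10.31 and 10.33 in control cells (difference -0.26, limma, adjusted p = 0.10). *Sel1l*, the partner that holds Hrd1 in place, differed by -0.28 (adjusted p = 0.16) and *Derl2*, a membrane protein of the exit channel, by -0.22 (adjusted p = 0.13). For each of these 3 genes every silenced array lay below every control array, while 34.1% of all genes did not overlap in 1 direction or the other. *Derl1* differed by 0.23 and was detected on only 2 of 3 silenced and 1 of 3 control arrays. *Herpud1*, an ER membrane protein strongly raised by ER stress, had 13.94, 13.97 and 13.90 in silenced cells, against 13.91, 14.01 and 13.89 in control cells, so that the groups were intermixed. The difference of *Herpud1* was -0.0029 with a 95% confidence interval of -0.19 to 0.19.

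*Hspa5* encodes BiP, the main Hsp70 chaperone of the ER and the usual marker of the unfolded protein response. Its log2 signal was 8.44, 8.70 and 8.98 in silenced cells at 48 h, against 7.85, 8.34 and 8.46 in control cells. The highest control array exceeded the lowest silenced array, and the difference of 0.49 had a wide interval (0.08 to 0.91, limma, adjusted p = 0.12). *Hspa5* passed at 48 h with no background correction and with a replicate block. *Hyou1*, another Hsp70-type chaperone, had 7.21, 7.54 and 7.25 in silenced cells, against 6.93, 7.06 and 7.20 in control cells, a difference of 0.27 (adjusted p = 0.17) with no overlap. The other large chaperone, *Hsp90b1* (Grp94), had 12.95, 12.95 and 13.19 in silenced cells, against 12.90, 13.16 and 13.02 in control cells. Its difference was -0.0018 (interval -0.25 to 0.25). *Dnajb9*, a cofactor of BiP that depends on Xbp1, had 10.37, 10.54 and 10.55 in silenced cells, against 10.35, 10.37 and 10.45 in control cells (difference 0.10, interval -0.11 to 0.30). In all, 0 of 8 tested chaperone genes passed the limma test at 48 h, with 2 at an unadjusted p under 0.05, and 5 of 8 differences were above 0.

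*Xbp1*, the transcription factor whose mRNA is spliced by Ire1, had 12.52, 12.47 and 12.39 in silenced cells at 48 h, against 12.67, 12.72 and 12.69 in control cells. All silenced arrays lay below all control arrays, but the difference of -0.23 did not pass (SE 0.084, limma, adjusted p = 0.11). *Xbp1* passed when all 12 arrays entered the fit, with the processed values of the authors and with no background correction. The array does not tell spliced from unspliced *Xbp1* mRNA by any annotation used here. *Eif2ak3*, the sensor Perk, had 7.76, 8.01 and 8.04 in silenced cells, against 8.02, 8.17 and 8.29 in control cells (difference -0.23, adjusted p = 0.23), with overlapping groups. No member of the disulfide isomerases (*Pdia3*, *Pdia4*, *Pdia6* and *P4hb*, which form and exchange disulfide bonds) or of the translocon passed. The differences of these 4 isomerases ran from -0.08 to 0.25. In the translocon, *Sec61b* was the largest at -0.23 (adjusted p = 0.14), while *Sec61a1*, the channel itself, stood at -0.03. Counting all roles, the arrays of the groups did not overlap for 8 of 26 members, against 34.1% of all genes. With 3 arrays against 3, the smallest p that an exact two-sided permutation test can give is 0.1.

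At 96 h the question was the same, and other genes passed. *Calr*, which encodes the lectin chaperone and calcium-binding protein calreticulin, was lower in silenced cells, and *Wfs1*, an ER membrane protein that is mutated in Wolfram syndrome and dampens Atf6 signalling, was higher. *Calr* had 8.79, 9.14 and 9.31 in silenced cells, against 9.53, 9.62 and 9.66 in control cells. All silenced arrays were below all control arrays, with a difference of -0.52 (SE 0.13, limma, adjusted p = 0.048), or 0.696 times the control level. *Wfs1* had 10.70, 10.52 and 10.53 in silenced cells, against 9.97, 10.09 and 10.20 in control cells. Again the arrays did not overlap, and the difference was 0.50 (SE 0.094, adjusted p = 0.025), or 1.41 times the control level. This makes 1 of 26 members lower and 1 higher (3.85% each), against 3.39% lower and 3.44% higher among all genes, which is near the background. The unadjusted p was under 0.05 for 5 members, and the median difference was -0.04 over the members and 0.00454 over all genes. The member median was -0.08 without silenced replicate 1, 0.00019 without silenced replicate 3 and -0.0084 without control replicate 2, and it was -0.0097 with no filter and -0.0011 with median scaling.

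Both calls at 96 h were lost in most fits with 1 array left out, while the differences kept their direction. Such fits have fewer arrays, so a lost call does not show that 1 array made it. *Calr* still passed without silenced replicate 3, and leaving out any of the other 5 arrays ended the call, with adjusted p-values up to 0.11. The difference of *Calr* lay between -0.64 and -0.38 in these 6 fits. The *Calr* call was also lost in 6 of 10 other settings, among them median scaling and the processed values of the authors. *Wfs1* still passed without silenced replicate 3 or control replicate 3, and did not pass without replicate 1 or 2 of either group, with adjusted p-values up to 0.089. The difference of *Wfs1* lay between 0.44 and 0.56 in its 6 fits. *Wfs1* passed in 9 of 10 other settings, the exception being a replicate block (adjusted p = 0.060).

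The other chaperones at 96 h did not pass. *Hspa5* had 8.11, 8.34 and 8.16 in silenced cells, against 8.38, 8.20 and 8.45 in control cells (difference -0.14, interval -0.37 to 0.09). *Hsp90b1* had 13.03, 13.05 and 13.03 in silenced cells, against 13.47, 13.15 and 13.19 in control cells, a difference of -0.23 (limma, adjusted p = 0.18) with no overlap. *Hyou1* was the nearest to the threshold, with 7.49, 7.49 and 7.30 in silenced cells, against 6.90, 7.10 and 7.20 in control cells (difference 0.36, adjusted p = 0.072). It passed with no background correction, with an offset of 50 and with median scaling, where *Calr* did not. The silenced arrays of *Hyou1* lay above the control arrays on both days. *Dnajb9* had 10.29, 10.28 and 9.96 in silenced cells, against 10.04, 10.32 and 10.12 in control cells (difference 0.01, interval -0.26 to 0.28). *Dnajc3* (P58IPK), an inhibitor of Perk and cofactor of BiP, differed by 0.15 (adjusted p = 0.31).

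Neither *Eif2ak3*, the only sensor that could be tested, nor *Xbp1* nor any tested degradation gene passed at 96 h. *Xbp1* had 12.41, 12.45 and 12.39 in silenced cells, against 12.32, 12.28 and 12.44 in control cells (difference 0.07, limma, adjusted p = 0.62). *Eif2ak3* had 8.05, 8.19 and 7.71 in silenced cells, against 8.17, 8.13 and 8.09 in control cells (difference -0.15, adjusted p = 0.48). *Syvn1* had 12.16, 12.22 and 11.98 in silenced cells, against 12.05, 12.02 and 12.06 in control cells, with overlapping groups (difference 0.08, interval -0.13 to 0.28). *Herpud1* had 13.61, 13.63 and 13.41 in silenced cells, against 13.61, 13.55 and 13.52 in control cells (difference -0.01, interval -0.21 to 0.20). No degradation gene passed, with 0 of 7 at an unadjusted p under 0.05. *Sec61b* was again lower on every silenced array, with a difference of -0.28 (adjusted p = 0.11). In all, 6 of 26 members had groups that did not overlap, against 32.1% of all genes. The summed normalized signal of the myoblast and myotube markers was 68953 to 73557 on silenced and 59381 to 64933 on control arrays at 96 h, and its part in these differences was not tested. The bone and cartilage markers had a summed signal of 464 to 491 on silenced and 336 to 419 on control arrays at 96 h, with *Sp7*, *Ibsp*, *Col2a1* and *Acan* at background and 1 of 5 detected on all arrays, and its part was not tested either.

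**Figure D2:**
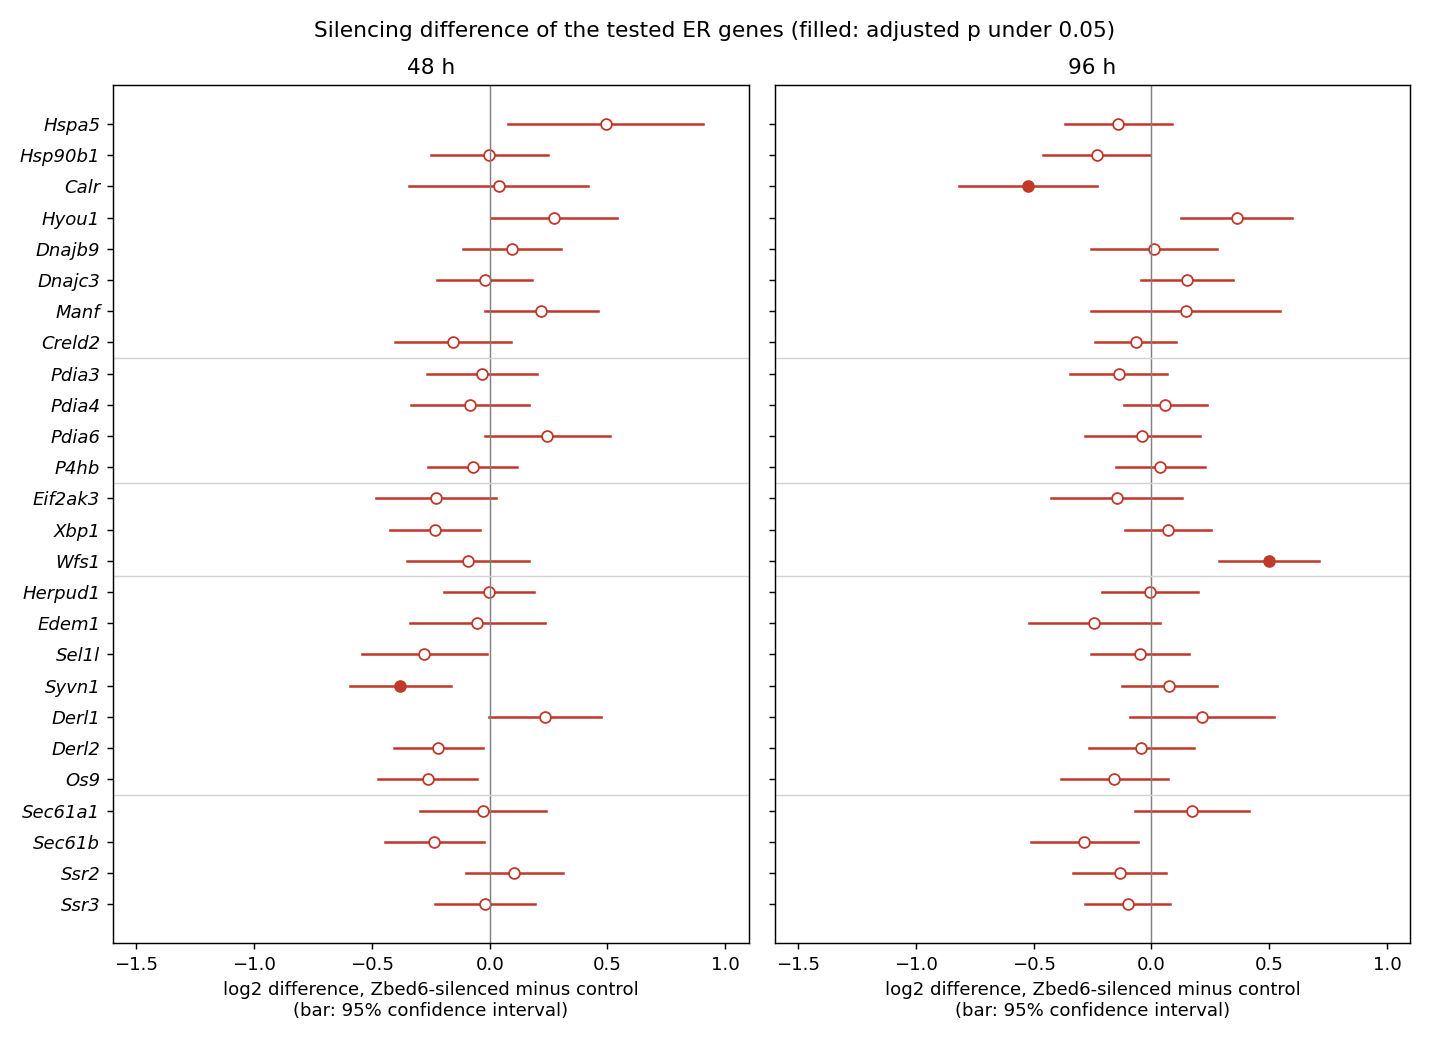
Log2 difference, *Zbed6*-silenced minus control, of the 26 tested genes at 48 h (left) and 96 h (right), with 95% confidence intervals from limma (n = 3 arrays per group) and filled points for an adjusted p under 0.05. The only filled points are *Syvn1* at 48 h and *Calr* and *Wfs1* at 96 h, and most other intervals cross 0.

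Whether the silencing effect itself differed between the days was tested as an interaction over all 12 arrays. *Wfs1* was the only member that passed, with an effect of 0.50 at 96 h and -0.09 at 48 h, a difference of 0.59 (SE 0.15, limma, adjusted p = 0.044). At 48 h its log2 signal was 9.94, 10.32 and 10.04 in silenced cells, against 10.26, 10.14 and 10.17 in control cells, so that groups parted only at 96 h. This is 1 of 26 members higher (3.85%) and 0 lower, against 2.38% and 2.11% of all genes, and 5 members had an unadjusted p under 0.05. The *Wfs1* interaction passed without silenced replicate 2 of 48 h and was lost when any of the other 11 arrays was left out, with differences of 0.51 to 0.70 over all 12 fits and adjusted p-values up to 0.098. *Syvn1* followed with 0.46 (adjusted p = 0.055), *Xbp1* with 0.30 (adjusted p = 0.10) and *Hspa5* with -0.63 (adjusted p = 0.12). The interaction of *Calr* was -0.56 (adjusted p = 0.16), so that its effect at 96 h was not shown to differ from that at 48 h, where the silenced arrays had 10.50, 9.83 and 10.21 and the control arrays 9.93, 10.28 and 10.22.

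**Figure D3:**
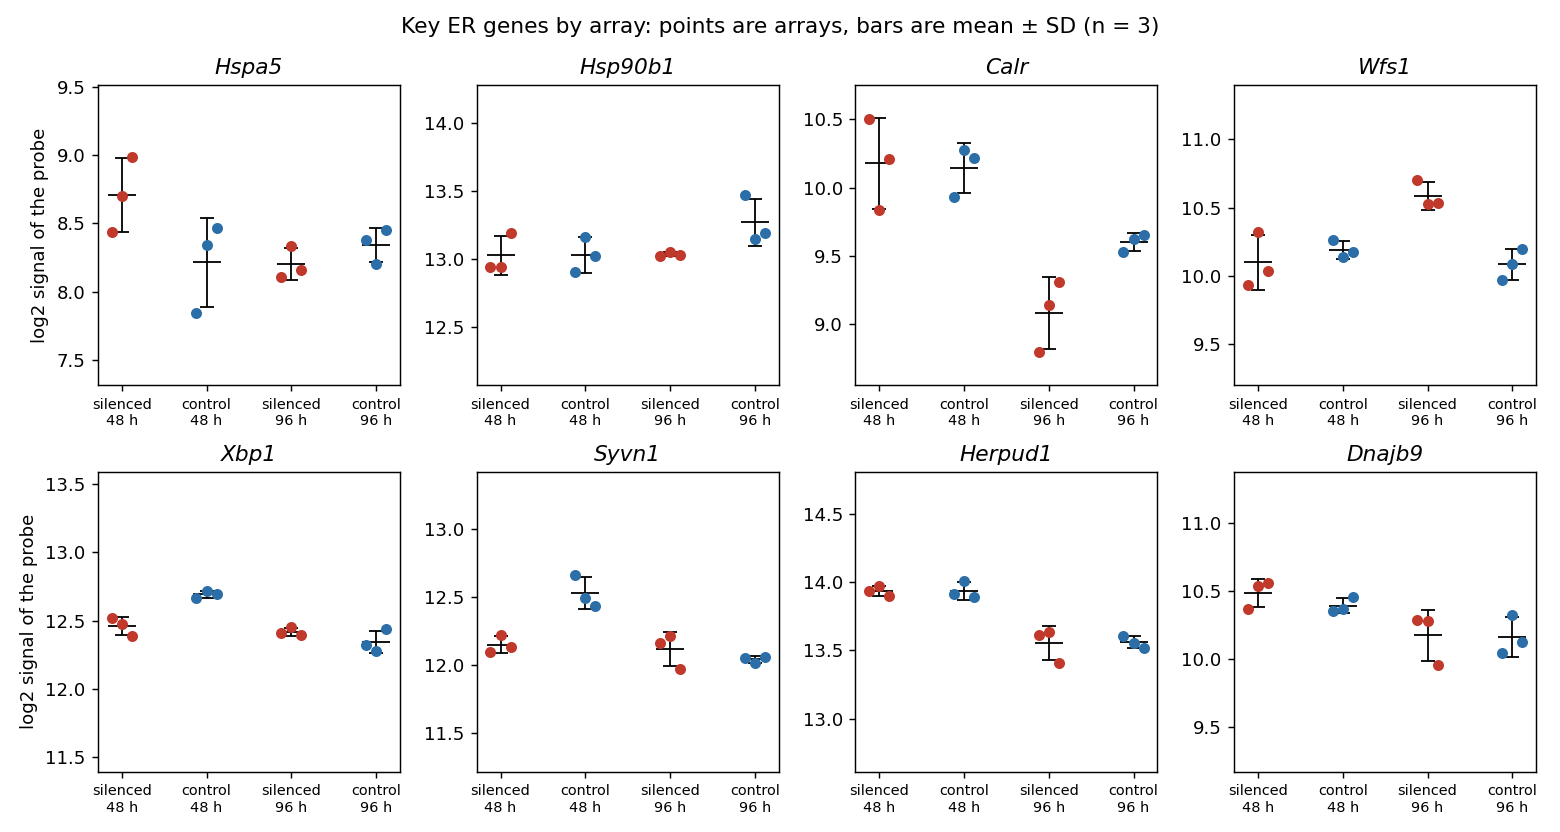
Log2 signal of 8 named genes on each array (points), with mean and SD (bars, n = 3), in silenced (red) and control (blue) cells at 48 h and 96 h. All panels span the same range of 2.2 on the log2 scale. *Wfs1* stands out in silenced cells at 96 h (10.52 to 10.70), *Syvn1* and *Xbp1* in control cells at 48 h, and *Calr* and *Herpud1* are lower at 96 h in both kinds of cells.

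More members passed between the days than between the siRNAs, and so did more of all 8858 genes. Of these, 2477 passed with time in silenced and 2913 in control cells, against 907 between the siRNAs at 48 h and 605 at 96 h. The tests with time used all 12 arrays in 1 fit, and those between the siRNAs used the 6 arrays of a day. In silenced cells 7 of 26 members passed between 96 h and 48 h, of which 6 were lower at 96 h (23.1%, against 12.4% of all genes) and 1 was higher (3.85%, against 15.6%). In control cells 6 of 26 passed and all were lower at 96 h (23.1%, against 15.2% of all genes), while 0 were higher, against 17.7% of all genes. *Sec61b* (0.20) and *Ssr3* (0.21) were higher in control cells at 96 h without passing. *Sec61b* passed with the mean over probes, and *Ssr3* passed with no background correction. The median change was -0.11 over the members in silenced cells and -0.14 in control cells, against 0.02 over all genes in each. The median in silenced cells was -0.05 without silenced replicate 3 of 96 h, with median scaling and with the processed values, and -0.04 with no filter or a stricter one, and that in control cells was -0.06 with the processed values. Markers of cell types differed between the days as well. The summed signal of the myoblast and myotube markers was 68953 to 73557 at 96 h, against 69355 to 71996 at 48 h, in silenced cells and 59381 to 64933 at 96 h, against 69160 to 74049 at 48 h, in control cells, where 2 of 7 tested markers were lower, as were 3 of 7 in silenced cells. Of the smooth muscle markers, *Tagln* was detected on all arrays of 96 h and on none of 48 h in both kinds of cells. *Myh11* and *Cnn1* were detected on no array of either day. The summed signal of the smooth muscle markers in silenced cells was 41296 to 43354 at 96 h, against 36509 to 40855 at 48 h. In control cells it was 38846 to 41692 at 96 h, against 39052 to 40852 at 48 h. The summed signal of the bone and cartilage markers was 464 to 491 at 96 h, against 482 to 619 at 48 h, in silenced cells and 336 to 419 at 96 h, against 504 to 557 at 48 h, in control cells. The part of these markers in the changes with time was not tested. With median scaling, 3 members were lower and 1 was higher in silenced cells. Median scaling also moved the share of higher genes among all calls to 70.3% in silenced and 68.6% in control cells, against 55.8% and 53.8% with quantile normalization, and at 96 h between silenced and control cells to 63.0%, against 50.4%. The changes in silenced cells, the changes in control cells and the silencing comparisons share arrays and are given side by side only.

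*Calr* fell in both kinds of cells. In silenced cells it had 8.79, 9.14 and 9.31 at 96 h, against 10.50, 9.83 and 10.21 at 48 h, a change of -1.10 (SE 0.16, limma, adjusted p = 0.00031), which is 0.467 times the 48 h level. In control cells it had 9.53, 9.62 and 9.66 at 96 h, against 9.93, 10.28 and 10.22 at 48 h, a change of -0.54 (adjusted p = 0.023). The 96 h arrays were below every 48 h array in both kinds of cells. The fall in silenced cells passed with each array left out in turn, whereas that in control cells was lost without control replicate 2 or 3 of 48 h or replicate 1 or 2 of 96 h (adjusted p up to 0.077).

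*Herpud1* fell in both kinds of cells. In silenced cells it had 13.61, 13.63 and 13.41 at 96 h, against 13.94, 13.97 and 13.90 at 48 h, a change of -0.38 (limma, adjusted p = 0.0036). In control cells it had 13.61, 13.55 and 13.52 at 96 h, against 13.91, 14.01 and 13.89 at 48 h, also a change of -0.38 (adjusted p = 0.0036). The days did not overlap, and both falls passed with any single array left out and under all 10 other settings. The difference between the changes in silenced and control cells was -0.0046, with an interval of -0.25 to 0.24.

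*Syvn1* and *Xbp1* fell in control cells. *Syvn1* had 12.05, 12.02 and 12.06 in control cells at 96 h, against 12.66, 12.49 and 12.44 at 48 h, a change of -0.49 (SE 0.088, limma, adjusted p = 0.0012). In silenced cells its change was -0.03 (adjusted p = 0.82). *Xbp1* had 12.32, 12.28 and 12.44 in control cells at 96 h, against 12.67, 12.72 and 12.69 at 48 h, a change of -0.35 (adjusted p = 0.0036), and its change in silenced cells was -0.04 (adjusted p = 0.72). The tests of the difference between these changes are the interactions above, which did not pass for either gene. Both falls in control cells passed with any array left out and under all 10 other settings. *Derl2* (-0.33, adjusted p = 0.012) and *Dnajc3* (-0.31, adjusted p = 0.012) also fell in control cells. The *Derl2* call was lost without control replicate 3 of 96 h (adjusted p = 0.051) and that of *Dnajc3* without replicate 1 (adjusted p = 0.059), and both were lost with median scaling. All 7 tested degradation genes had a change below 0 in control cells, from -0.49 to -0.16, and 3 of them passed as lower, while 47.9% of all genes were below 0 and 15.2% passed as lower. In silenced cells 6 of 7 were below 0 and 2 passed, while 46.7% of all genes were below 0 and 12.4% passed as lower.

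In silenced cells *Wfs1* was the only member that rose, with 10.70, 10.52 and 10.53 at 96 h, against 9.94, 10.32 and 10.04 at 48 h (change 0.49, SE 0.10, limma, adjusted p = 0.0041), and this passed with any array left out and under all 10 other settings. Its change in control cells was -0.11 (adjusted p = 0.47). *Hspa5* fell by 0.51 in silenced cells, with 8.11, 8.34 and 8.16 at 96 h, against 8.44, 8.70 and 8.98 at 48 h (adjusted p = 0.032). In control cells *Hspa5* had 8.38, 8.20 and 8.45 at 96 h, against 7.85, 8.34 and 8.46 at 48 h, with overlap and a change of 0.13 (adjusted p = 0.59). The *Hspa5* fall was lost without silenced replicate 2 or 3 of 48 h or replicate 1 or 3 of 96 h (adjusted p up to 0.13), and with median scaling or no filter. *Edem1*, a lectin that draws glycoproteins out of the folding cycle, changed by -0.51 (adjusted p = 0.012) but was detected on only 1 of 3 silenced arrays at 96 h. The *Edem1* call was lost without silenced replicate 3 of 48 h or replicate 1 of 96 h (adjusted p up to 0.052). With the processed values of the authors the change of *Edem1* was -0.05 (adjusted p = 0.11), and it was -0.23 with no background correction and -0.28 with an offset of 50, where it passed. *Dnajb9* (-0.31, adjusted p = 0.043) and *Ssr2*, a subunit of the translocon-associated complex (-0.27, adjusted p = 0.030), fell in silenced cells as well. Without silenced replicate 2 or 3 of either day *Dnajb9* no longer passed (adjusted p up to 0.17), nor did it with median scaling, with no filter, with only the 6 arrays compared or with a replicate block. *Ssr2* was lost without silenced replicate 3 of 48 h or replicate 1 or 2 of 96 h (adjusted p up to 0.10), and with median scaling or only the 6 arrays compared. No disulfide isomerase passed in either kind of cells, with differences from -0.24 to 0.15, and 0 of 4 in silenced and 1 of 4 in control cells at an unadjusted p under 0.05. The difference of *Hsp90b1* was 0.01 in silenced cells (interval -0.22 to 0.24) and 0.24 in control cells (interval 0.01 to 0.47, adjusted p = 0.098). That of *Eif2ak3* was 0.05 in silenced and -0.03 in control cells.

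**Figure D4:**
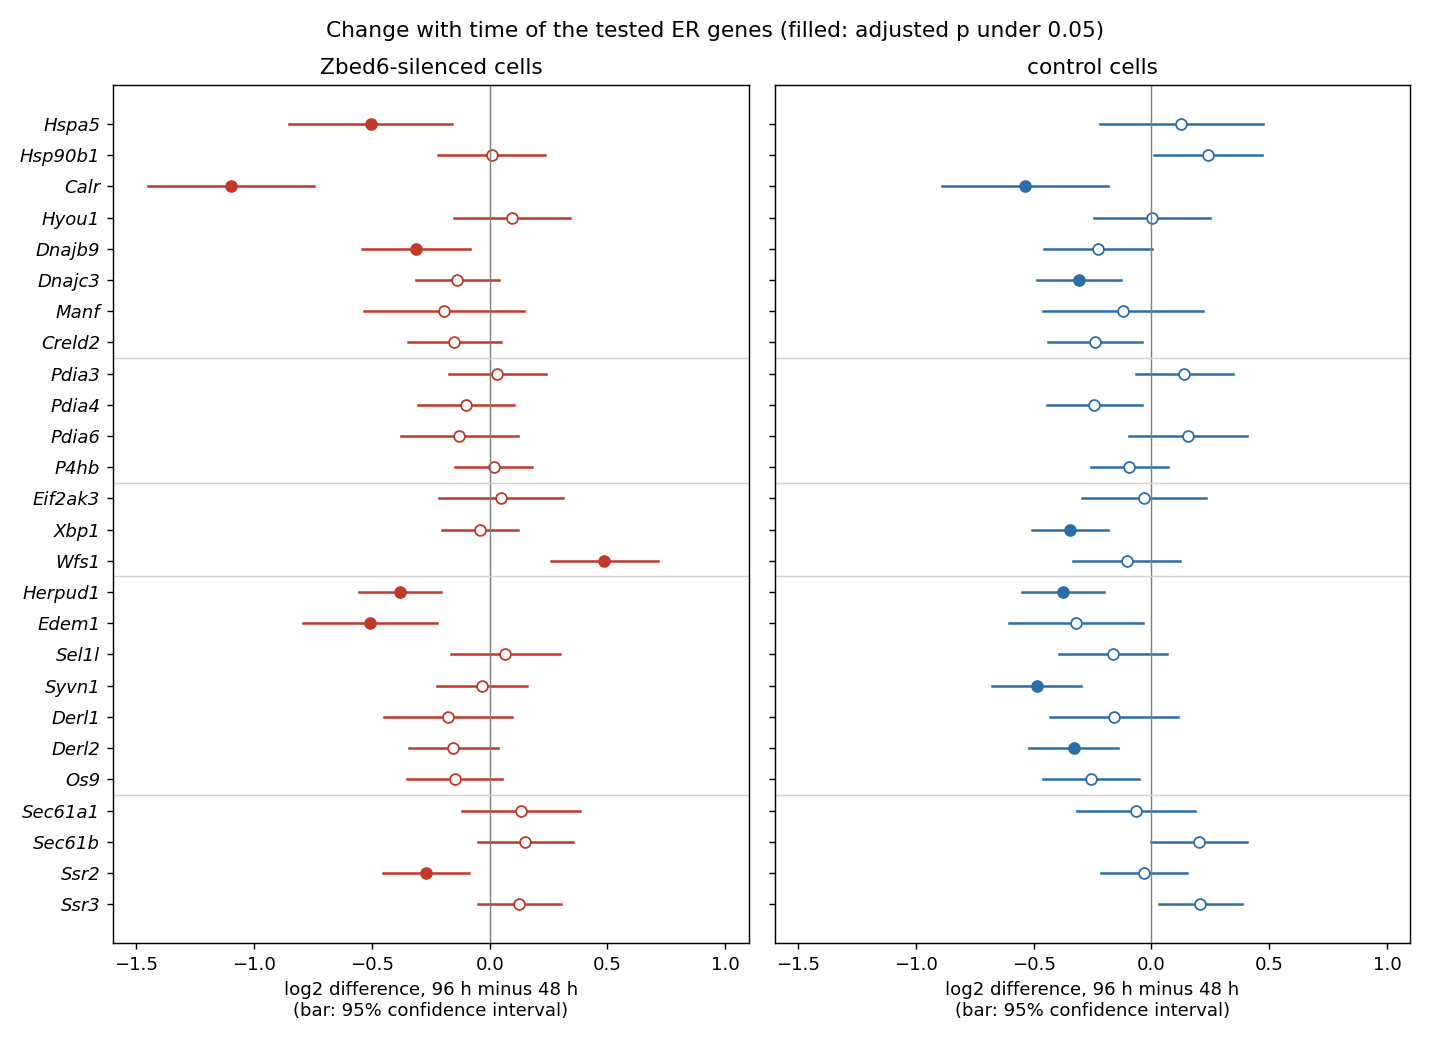
Log2 difference, 96 h minus 48 h, of the 26 tested genes in *Zbed6*-silenced (left, red) and control cells (right, blue), with 95% confidence intervals from the limma fit of all 12 arrays and filled points for an adjusted p under 0.05. *Calr* and *Herpud1* are filled below 0 in both panels, *Wfs1* is filled above 0 in silenced cells, and *Syvn1*, *Xbp1*, *Derl2* and *Dnajc3* are filled below 0 in control cells.

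The elements in the promoters can be set beside these values. Of the 9 genes with an ERSE, 7 were tested. Their silencing differences ran from -0.38 (*Syvn1*) to 0.49 (*Hspa5*) at 48 h and from -0.52 (*Calr*) to 0.15 (*Dnajc3*) at 96 h. With time, they ran from -1.10 (*Calr*) to 0.01 (*Hsp90b1*) in silenced cells and from -0.54 (*Calr*) to 0.24 (*Hsp90b1*) in control cells.

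Where a member had more than 1 kept probe, the probes could be compared. This was so for *Creld2*, *Derl2*, *Herpud1*, *Sec61b* and *Sel1l*. Between 96 h and 48 h the dimmer probe of *Herpud1* gave a change of -0.41 in silenced and -0.44 in control cells, on the same side as the brighter one. At 48 h the dimmer probes gave silencing differences of -0.18 for *Derl2* and -0.17 for *Sel1l*. The probes of *Sec61b* differed more, with -0.07 from the dimmer and -0.23 from the brighter probe at 48 h, but -0.28 from each at 96 h. Between 96 h and 48 h in control cells the dimmer *Sec61b* probe rose by 0.26 (limma, p adjusted over probes = 0.036). The brighter *Sec61b* probe rose by 0.20 (p adjusted over probes = 0.12). *Calr*, *Wfs1* and *Syvn1* rested on 1 probe each.

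Further genes of the same pathways were read from lists by function. At 48 h the limma test called 6 of 136 genes lower (4.41%, against 5.61% of all genes) and 5 higher (3.68%, against 4.63%), so the share of these genes called was below that of all genes. *Rcn3*, a calcium-binding chaperone of the secretory pathway, had a log2 signal of 7.84 ± 0.16 with *Zbed6* siRNA and 8.54 ± 0.13 with negative control siRNA (SD, n = 3 each), a difference of -0.70 (SE 0.11, adjusted p = 0.011). It was the only 1 of 23 folding enzymes and cochaperones that passed (median -0.05), and it passed with any array left out and under all 10 other settings, with a difference of -0.31 from the processed values of the authors. *Tmbim6* (Bax inhibitor-1), an ER membrane protein that restrains Ire1, had 13.45 ± 0.13 in silenced and 14.00 ± 0.15 in control cells (difference -0.55, adjusted p = 0.021), 1 of 15 genes of stress sensing (median -0.02). In collagen folding and modification, *Plod3*, a lysyl hydroxylase, was lower (-0.36, adjusted p = 0.043). All 11 tested genes of this list had a difference below 0, with a median of -0.16 beside 0.000545 over all genes, of which 49.9% were below 0.

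Further degradation genes passed in both directions at 48 h. The mannosidase-like *Edem2* was lower (-0.43, adjusted p = 0.035), whereas *Erlin2*, which targets membrane proteins for degradation (0.39, adjusted p = 0.030), and *Nploc4*, a cofactor of the p97 ATPase (0.41, adjusted p = 0.044), were higher, 3 of 20 by limma (median 0.02). Of 18 genes of translocation, *Sec61a2*, a further Sec61 channel subunit (0.46, adjusted p = 0.019), and the signal recognition particle genes *Srp9* (0.40, adjusted p = 0.024) and *Srp19* (0.44, adjusted p = 0.032) were higher and none was lower (median 0.0015). *Prkcsh*, the beta subunit of glucosidase II, was the 1 of 15 glycosylation genes that passed (-0.38, adjusted p = 0.033, median -0.12), and the retrieval receptor *Kdelr3* the 1 of 15 genes of coat and cargo receptors (-0.40, adjusted p = 0.029, median -0.05). Of these 11 calls at 48 h, 10 were lost with at least 1 array left out.

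At 96 h the lists gave 4 of 136 genes lower in silenced cells (2.94%, against 3.39% of all genes) and 0 higher, against 3.44%. The prolyl isomerases *Fkbp11*, with 9.82 ± 0.03 in silenced and 10.24 ± 0.11 in control cells (difference -0.43, adjusted p = 0.029), and *Fkbp7* (-0.40, adjusted p = 0.038) were 2 of 23 folding genes (median -0.10). *P3h3*, a prolyl hydroxylase of collagen, was lower (-0.38, adjusted p = 0.044). Of the collagen folding genes, 10 of 11 had a difference below 0 (median -0.12), while 48.9% of all genes were below 0. *Srp72*, of the signal recognition particle, was lower by limma (-0.42, adjusted p = 0.033), 1 of 18 (median -0.02). Of the 4 calls at 96 h, 3 were lost with any array left out, and *Fkbp11* passed in 1 of 6 such fits. *P3h3* was also lost in 6 of 10 other settings, with a difference of -0.07 from the processed values. The limma test gave 0 calls at 96 h among the further degradation genes (2 of 20 at an unadjusted p under 0.05, median 0.02), glycosylation (3 of 15, median -0.04), coat and cargo receptors (3 of 15, median -0.03) and stress sensing (5 of 15, median 0.05). The median over all genes was 0.00454.

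The branch of Perk and Atf4, which halts translation and raises genes of amino acid supply, did not pass the limma test for any of 19 genes between silenced and control cells, with 3 at an unadjusted p under 0.05 at 48 h and 6 at 96 h and medians of -0.03 and 0.0024. With time, 11 of 19 genes were lower at 96 h in silenced cells (57.9%, against 12.4% of all genes), with a median of -0.51, and 11 of 19 in control cells (57.9%, against 15.2%), with a median of -0.50. *Vldlr* was among the 11 only in silenced and *Phgdh* only in control cells, and neither difference between the changes passed (adjusted p = 0.15 and 0.59). The genes named with their changes over time in this list were chosen after their values were seen. *Trib3*, a pseudokinase that feeds back on Atf4, had 6.20 at 96 h against 7.38 at 48 h in silenced cells (mean log2 signal, n = 3 each), a change of -1.18 (limma, adjusted p = 0.00024), and a change of -1.30 in control cells (adjusted p = 0.00012). With the processed values of the authors these changes were -0.24 and -0.28, and both passed. *Atf4* itself fell by 0.87 in silenced (adjusted p = 2.5e-05) and by 0.59 in control cells (adjusted p = 0.00052). *Chac1*, a glutathione-degrading enzyme, changed by -0.69 in silenced and -0.66 in control cells. *Nupr1*, a stress-induced chromatin protein, was the 1 gene that rose, both in silenced (0.44) and control cells (0.61). *Ddit3* (Chop), the factor of the late stress response, had differences of -0.06 in silenced and 0.0041 in control cells and did not pass. *Slc7a11* was not well above background at 96 h on any array of either group, and it counts among the 11 in each. The difference of the changes between silenced and control cells did not pass for any of the 19 genes. Genes of the other 7 lists passed with time in both directions. Folding enzymes had 1 of 23 genes higher and 3 lower in silenced cells (median 0.0048) and 6 higher and 3 lower in control cells (median 0.10). Collagen folding had 3 of 11 higher and 0 lower in silenced cells (median 0.16) and 2 higher and 1 lower in control cells (median -0.04). Over all 8 lists, 22.8% of 136 genes were lower and 6.62% higher at 96 h in silenced cells (12.4% and 15.6% of all genes), and 27.2% were lower and 13.2% higher in control cells (15.2% and 17.7%).

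**Figure D5:**
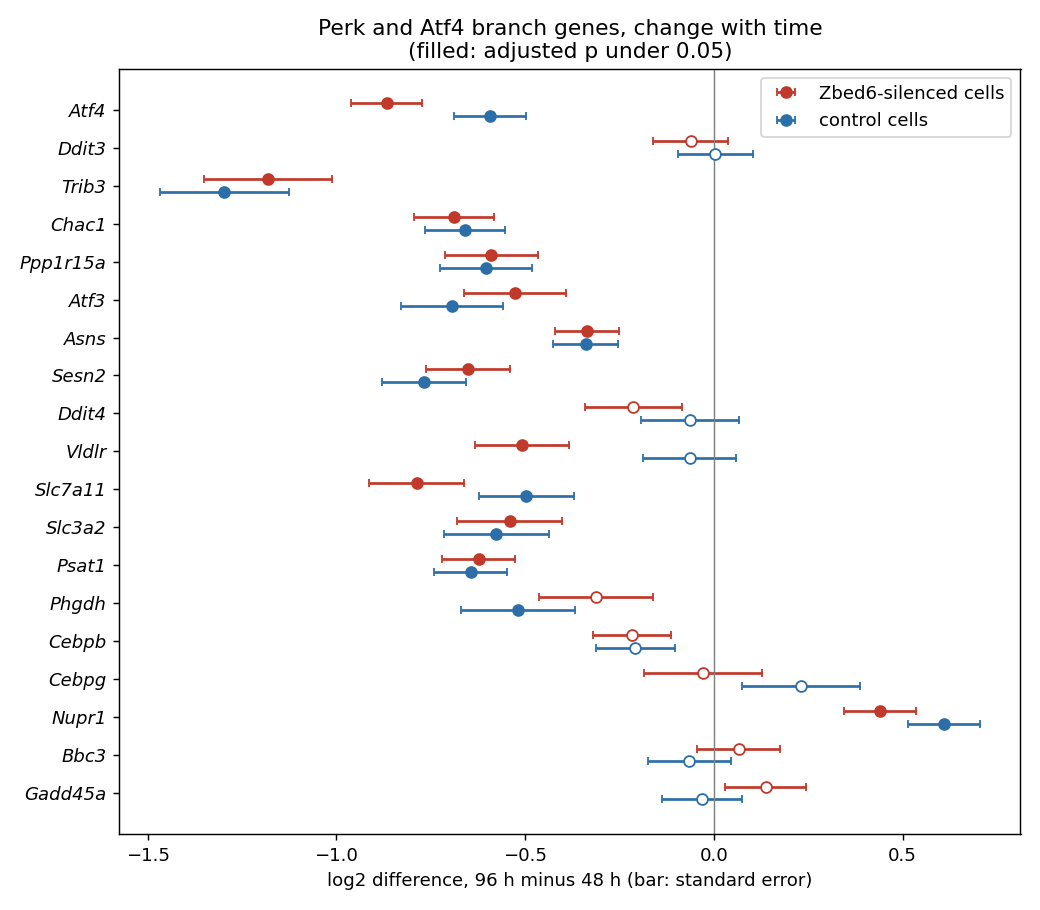
Log2 difference, 96 h minus 48 h, of the 19 genes of the Perk and Atf4 branch in *Zbed6*-silenced (red) and control cells (blue), with standard errors from the limma fit of all 12 arrays and filled points for an adjusted p under 0.05. In each kind of cells 11 genes are filled below 0, among them *Trib3* (-1.18 and -1.30) and *Atf4* (-0.87 and -0.59), and *Nupr1* alone is filled above 0.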

How the data were processed

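Each of the 12 RNA samples was hybridized to its own array. The intensity of each probe was deposited as read, without background subtraction or normalization. Per the file headers it comes with a detection p-value, whose steps of 1 in 798 reflect the negative control beads. A table of processed values on a log2-like scale, made by the authors with lumi in FlexArray by a transformation and centring that are not stated, served only as an alternative.

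Intensities were background corrected with the detection p-values, offset by 16, quantile normalized and log2 transformed (neqc, limma 3.58.1, R 4.3.3). The filter kept probes with a detection p under 0.05 on 3 or more of 12 arrays, and each gene was read from its brightest kept probe (8858 of 16593 symbols). This rule can pass a gene through the group where it is high. Of 41 member probes 31 were kept. The silencing effect was tested by limma on the 6 arrays of a day, after the study's methods, and changes with time and the interaction in 1 fit of 12 arrays. Benjamini-Hochberg adjustment ran over 8858 genes, with a threshold of 0.05. The fits were tested on simulated data with changes of at least 1 on the log2 scale. Every silencing difference of a member was smaller, so this check does not cover differences of that size. RefSeq promoters were matched by symbol.

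The member genes, the lists and the tests were chosen with earlier results of these data known. Full values are given for members past the threshold in a silencing comparison or the interaction, for *Hspa5*, *Hsp90b1*, *Xbp1*, *Herpud1*, *Dnajb9* and the sensors, and for the largest changes with time. From each other list, up to 3 genes per direction are named by smallest p in the silencing comparisons. Alternatives were median scaling, no background correction, a larger offset (50), the processed values, no filter, a stricter filter (p under 0.01 on at least 6 arrays), the mean over probes, other arrays in the fit, a replicate block and leaving out each array. Adjustment over probes in place of genes was added after seeing the data. Slide as a block was not run, because the sources used here do not give it.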

Additional observations from a re-analysis of the deposited data

Results flagged for a closer look

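The silencing effect differed between the days (limma interaction over 12 arrays) for 1 member and for 4 genes of the other lists. *Wfs1* had a log2 silencing effect of 0.50 at 96 h and -0.09 at 48 h, a difference of 0.59 (adjusted p = 0.044), which was past the threshold in 1 of 12 fits with an array left out. *Srp19* had an effect of -0.28 at 96 h and 0.44 at 48 h, a difference of -0.72 (adjusted p = 0.022), past the threshold in 9 of 12 such fits. *Srp9* differed by -0.48 (adjusted p = 0.035), with effects of -0.07 at 96 h and 0.40 at 48 h, past it in 3 of 12. *Selenok*, a selenoprotein of ER-associated degradation, differed by -0.65 (adjusted p = 0.038), with effects of -0.34 at 96 h and 0.30 at 48 h, also in 3 of 12. *Tmbim6* differed by 0.53 (adjusted p = 0.048), with effects of -0.02 at 96 h and -0.55 at 48 h, in 2 of 12. By contrast, the study's RNA sequencing of the pooled triplicates listed *Tmbim6* as lower in silenced cells on both days. Its fall there was larger at 96 h than at 48 h. Groups of 3 arrays were too small for a test of single outlying arrays.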

How the results depend on the processing

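Few members passed the silencing tests, and their number moved with the processing. At 48 h (1 member) it was 4 with no background correction and with the processed values of the authors, 2 with all 12 arrays in the fit, 0 with median scaling and with p-values adjusted over probes, and 0 to 0 with an array left out. At 96 h (2 members) it was 4 with no background correction, 1 with the processed values, with no filter, with all 12 arrays in the fit and with adjustment over probes, and 0 to 2 with an array left out, and it was 2 with median scaling, with *Hyou1* in place of *Calr*. For the interaction (1 member) it was 3 with the processed values, 2 with no background correction, an offset of 50 or a stricter filter, 0 with median scaling, no filter or adjustment over probes, and 0 to 1 with an array left out. Over time, silenced cells (7 members) had 4 with median scaling and 3 to 7 with an array left out, and control cells (6 members) had 10 with no background correction and with the processed values and 4 to 7 with an array left out. Adjustment over probes was chosen after seeing the data.

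For pairing, the mean of its group was first taken from each gene, so these correlations are not those of the signals given above. Same-numbered arrays of silenced and control cells then correlated at -0.059 to 0.17 at 48 h and at -0.22 to 0.034 at 96 h. Arrays with other numbers correlated at -0.27 to 0.25 at 48 h and at -0.18 to 0.23 at 96 h. No pairing by replicate number was seen, but so few arrays cannot settle whether the numbers pair them. With a replicate block 1 member passed at 48 h (*Hspa5* in place of *Syvn1*), 0 at 96 h, 0 in the interaction, 6 over time in silenced cells (*Dnajb9* lost) and 7 in control cells (*Edem1* gained).

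No called member changed direction. Over 2195 values of single members, 70 fell below the threshold, 40 passed it anew and the rest stayed on their side. Most of these values were not past the threshold in the main fit, so they could not fall below it. The *Syvn1* call at 48 h held in 0 of 6 fits with an array left out and 7 of 10 other settings. At 96 h *Calr* held in 1 of 6 and 4 of 10, and *Wfs1* in 2 of 6 and 9 of 10. The *Wfs1* interaction held in 1 of 12 and 5 of 9. Of 706 values of named genes in the other lists, 559 stayed on their side. *Manf*, *Edem1* and *Derl1* lie near the background, which limits their values.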
